A study of Homo sapiens with 10 samples.

Results

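Glutathione transferases were described across 2 human prostate cancer cell lines, LNCaP and DU145, and across 3 cell states in each line. The 10 members were taken by gene symbol from the array annotation: GSTP1, GSTM2, GSTM3, GSTM4, GSTO1, GSTK1, GSTZ1, MGST1, MGST2 and MGST3. They are 10 of 19775 genes that had a probe set assigned to a single symbol, and all 10 were among the 14313 genes tested. Of their 19 probe sets, 17 passed the filter on dim signal.

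The 10 arrays, 1 per RNA sample, fall into 6 groups. LNCaP cells, which respond to androgen and were derived from a lymph node metastasis, contributed 1 array of ribavirin-treated EOS cells, 2 arrays of EOS-selected cells and 2 arrays of PGK controls. DU145, an androgen-independent line from a brain metastasis, contributed the same numbers. EOS is a reporter vector with GFP and puromycin resistance under enhancers of OCT4 and SOX2, and culture in puromycin enriched cells with more OCT4. The control vector has the same pair of genes under the PGK promoter, which is active in most cells, so every array comes from transduced cells and no untransduced cells were measured. Ribavirin, a guanosine analogue and antiviral drug, was given to EOS cells number 2 of each line, at a dose and for a time that the labels do not give. The labels do not say that arrays numbered 1 and 2 came from separate cultures, so each p-value rests on a spread between arrays that could be technical. The EOS groups are drug-selected pools defined by reporter activity, and each line is a single cell line, so a difference between lines describes these lines and not a type of tumour.

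The line labels fitted the prostate luminal markers: all 6 measured ones were above the array median in every LNCaP array and 1 of 6 in every DU145 array, with summed scaled intensities of 46830 to 78090 in LNCaP and 146.3 to 263.9 in DU145. Epithelial markers summed to 58560 to 64620 in LNCaP and 12340 to 22800 in DU145. KLK3, KLK2 and TMPRSS2 were above the array median in 5 of 5 LNCaP and 0 of 5 DU145 arrays, and CDH1 (17250 to 25800 in LNCaP, 27.71 to 101.1 in DU145), CLDN7 and EPCAM were also higher in LNCaP. Sums over the markers of other cell types were below those of the epithelial markers in both lines: 310.1 to 839.9 in LNCaP and 355.5 to 1180 in DU145 for fibroblasts, 76.93 to 270.7 and 83.02 to 148.2 for leukocytes, and 155.7 to 381.5 and 133.9 to 223.3 for endothelium, in the same order. Of these markers COL3A1 and VWF were called between the lines. COL3A1 exceeded the array median in 0 of 5 LNCaP arrays and VWF in 0 of 5 DU145 arrays, so each passed the filter through the other line alone. COL3A1 had 4.747 to 21.58 in LNCaP and 36.26 to 500.8 in DU145, where EOS 2 (500.8) and ribavirin (380.8) stood above the rest, and VWF had 29.47 to 134.5 in LNCaP and 7.179 to 23.11 in DU145. The arrays also differed by number, which the labels do not explain. The 6 arrays numbered 2 were deposited at trimmed means of 96.56 to 126.5 and had ACTB 3'/5' signal ratios of 3.204 to 3.993, whereas the 4 numbered 1 had a trimmed mean of 500 and ratios of 1.236 to 1.511. Intensities below are probe set intensities after each array was scaled to a trimmed mean of 500, and log2 differences are between values of log2(scaled intensity + 16), so that changes of dim genes are understated. The median scaled intensity of an array lay between 53.56 and 71.31.

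Glutathione transferases join the thiol of glutathione, the main small thiol of the cell, to electrophiles such as drugs, carcinogens and products of lipid oxidation. The conjugates are pumped out of the cell and broken down. Cytosolic enzymes are grouped in classes, among them pi (GSTP1), mu (GSTM2, GSTM3, GSTM4), omega (GSTO1) and zeta (GSTZ1). GSTK1 is the mitochondrial and peroxisomal kappa class enzyme, and MGST1, MGST2 and MGST3 belong to a separate membrane-bound family that also acts on eicosanoids. In prostate cancer GSTP1 is known for loss of expression with methylation of its CpG-rich promoter, and in LNCaP cells that promoter is known to be methylated. Methylation was not measured in this series.

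GSTP1, GSTM3 and GSTM4 had the largest line differences among the 10 members, and for that reason their promoter windows are shown, from 250 bases before to 50 bases after the gene start in RefSeq on GRCh38.p14, 5′ to 3′ along the gene. Capitals mark CpG dinucleotides. The GSTP1 window is chr11:67583562-67583861 on the plus strand, the GSTM4 window chr1:109655849-109656148 on the plus strand and the GSTM3 window chr1:109740989-109741288 on the minus strand.
GSTP1: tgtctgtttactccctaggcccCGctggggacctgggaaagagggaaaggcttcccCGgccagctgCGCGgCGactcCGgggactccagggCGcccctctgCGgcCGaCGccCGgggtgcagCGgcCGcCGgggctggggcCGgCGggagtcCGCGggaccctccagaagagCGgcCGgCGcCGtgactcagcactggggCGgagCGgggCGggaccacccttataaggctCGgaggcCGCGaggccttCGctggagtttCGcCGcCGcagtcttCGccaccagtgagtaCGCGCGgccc
GSTM4: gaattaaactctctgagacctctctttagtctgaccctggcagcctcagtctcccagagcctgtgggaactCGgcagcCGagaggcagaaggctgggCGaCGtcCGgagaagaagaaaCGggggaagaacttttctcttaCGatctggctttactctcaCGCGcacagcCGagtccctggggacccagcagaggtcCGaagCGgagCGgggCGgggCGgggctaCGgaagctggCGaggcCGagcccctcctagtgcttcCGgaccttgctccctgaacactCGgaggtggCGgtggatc
GSTM3: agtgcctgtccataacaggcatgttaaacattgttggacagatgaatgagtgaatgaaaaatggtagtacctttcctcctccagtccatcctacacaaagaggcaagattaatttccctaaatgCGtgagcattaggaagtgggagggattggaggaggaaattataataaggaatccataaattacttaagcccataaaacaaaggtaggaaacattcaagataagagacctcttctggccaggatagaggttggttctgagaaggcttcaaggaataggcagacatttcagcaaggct
The GSTP1 window held 36 CpG and 74.0% G or C, the GSTM4 window 21 CpG and the GSTM3 window 1 CpG. Among 35116 RefSeq promoter windows of that length the median was 14 CpG. Fewer CpG than in GSTP1 were found in 87.3% of windows, fewer than in GSTM4 in 60.5% and fewer than in GSTM3 in 4.0%. The window of GSTZ1, a member higher in LNCaP, is not shown and held 33 CpG, with fewer in 82.8% of windows. A relation between CpG counts and line differences was not tested. The letters TGACNNNGC, the core of the antioxidant response element, were searched on both strands. GSTP1 held 1 match, TGACTCAGC, which starts 66 bases before the gene start, and neither GSTM4 nor GSTM3 held one. The 9 members found in the table had 11 windows, of which 3 held a match, as did 13.3% of all windows. Those 3 were the GSTP1 window, the GSTO1 window and 1 of the 3 MGST1 windows. A match is a string of letters and says nothing of whether a factor binds there.

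Between LNCaP and DU145 the family moved in both directions. In the mean over the 3 states, 7 of 10 members differed at an adjusted p under 0.05 (limma, Benjamini-Hochberg over 14313 genes), 3 higher and 4 lower in LNCaP. Among the 4 lower is GSTM4, which passed the filter on dim signal through DU145. A call was common in this comparison: 48.4% of all genes passed, with 23.5% higher in LNCaP and 24.9% lower. The median log2 difference of the members was -0.23, against -0.04 for all genes. In 8 of 10 members the 5 LNCaP arrays did not overlap the 5 DU145 arrays, as in 42.5% of all genes. The line comparison sets arrays of the same state beside each other, and errors after ± on log2 differences are standard errors from the spread shared by all 10 arrays.

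**Figure D1:**
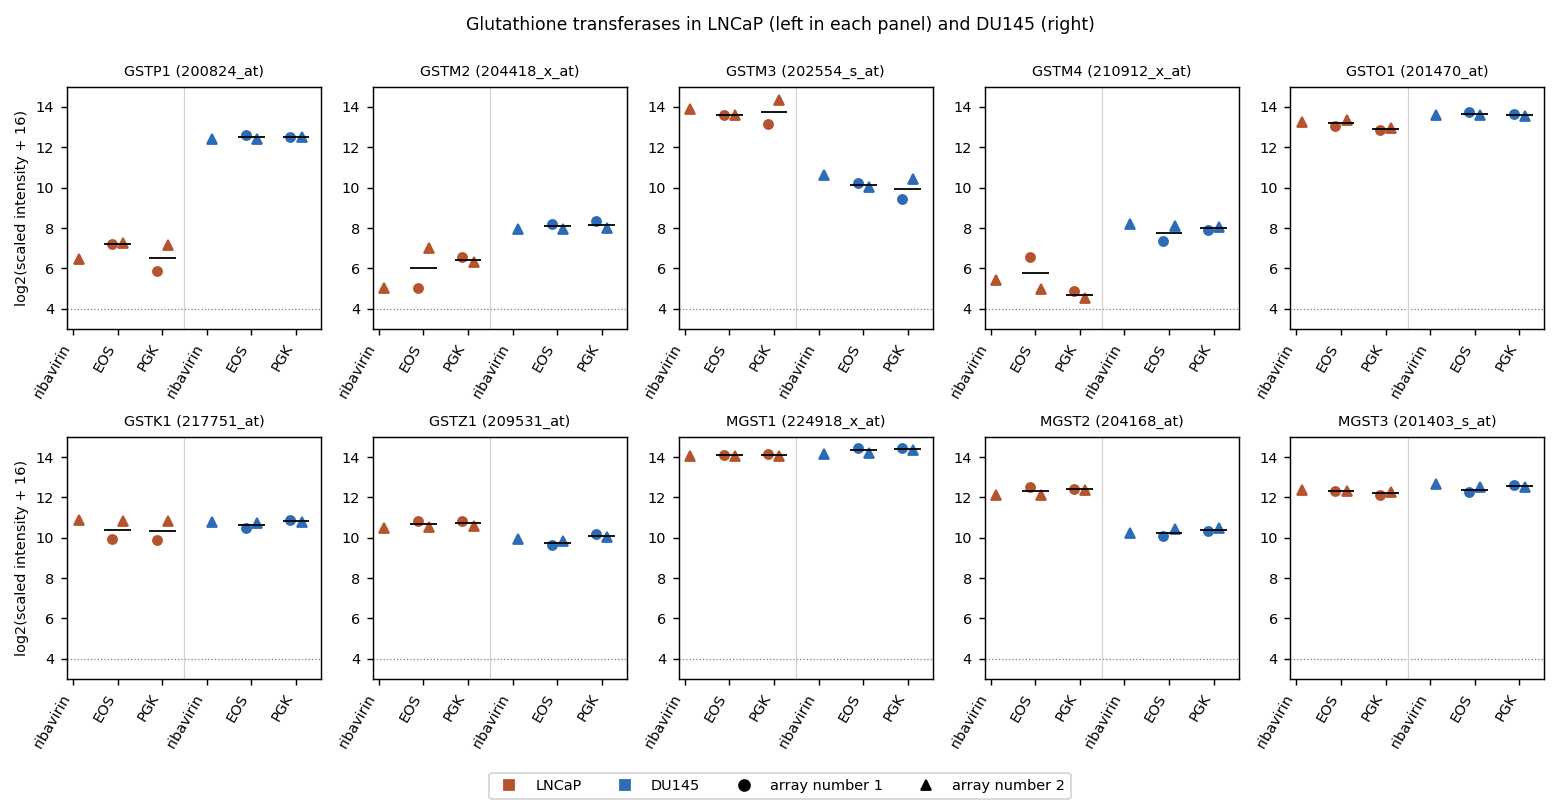
Each panel shows one member's chosen probe set as log2(scaled intensity + 16) on the vertical axis in ribavirin-treated EOS, EOS and PGK cells of LNCaP (left, orange) and DU145 (right, blue). Circles are arrays numbered 1, triangles arrays numbered 2, black bars the mean of 2 arrays, and the dotted line the value of an intensity of 0. GSTP1 sat between 41.82 and 138 in LNCaP, below every DU145 array (5418 to 6202), and GSTM3 sat the other way round.

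GSTP1, the pi class enzyme, had the largest difference of the 10 members and was lower in LNCaP. Its scaled intensity in LNCaP was 71.09 with ribavirin, 130.6 and 138 in the EOS arrays and 41.82 and 127.8 in the PGK arrays. In DU145 it was 5432 with ribavirin, 6202 and 5418 in EOS and 5735 and 5784 in PGK. LNCaP exceeded the array median in 4 of 5 arrays and DU145 in 5 of 5, and the lines did not overlap. The means were 101.9 ± 42.88 in LNCaP and 5714 ± 320.5 in DU145 (SD, n = 5 arrays each). The log2 difference was -5.74 ± 0.25 (95% interval -6.32 to -5.17, limma adjusted p = 6.58e-07), 53.52-fold lower in LNCaP. It was below 0 in 5 of 5 pairs of arrays of the same state and number, from -6.64 to -5.14. The difference was -5.98 with a constant of 1 added before the log and -5.20 with 64.

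The mu class genes lie side by side on chromosome 1, in the order GSTM4, GSTM2, GSTM1, GSTM5, GSTM3, and did not move together. GSTM2 and GSTM4 were lower in LNCaP and GSTM3 higher. Their sequences are alike, and the GSTM2 probe set and the chosen GSTM4 probe set are of the kind that can bind related transcripts, so signal between mu class genes may be shared.

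GSTM3, a mu class enzyme known from brain and testis, had scaled intensities in LNCaP of 15170 with ribavirin, 12370 and 12250 in EOS and 9007 and 20910 in PGK. In DU145 the values were 1575 with ribavirin, 1177 and 1047 in EOS and 680.5 and 1374 in PGK. All LNCaP arrays lay above all DU145 arrays, with means of 13940 ± 4466 and 1171 ± 339.4 (SD, n = 5 arrays each). The log2 difference was 3.50 ± 0.27 (95% interval 2.88 to 4.13, limma adjusted p = 1.72e-05), 11.34-fold higher in LNCaP. A dimmer GSTM3 probe set, at 57.53 to 151.1 in LNCaP and 55.73 to 94.4 in DU145, overlapped between the lines and gave a log2 difference of 0.11. The probe sets of this gene thus disagree on the size of the line difference, and their mean gave 1.81.

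GSTM4 had scaled intensities in LNCaP of 26.27 with ribavirin, 79.27 and 15.88 in EOS and 13.03 and 7.34 in PGK. In DU145 it had 273.2 with ribavirin, 150.8 and 254.8 in EOS and 226.1 and 251.5 in PGK. LNCaP exceeded its array median in 1 of 5 arrays and DU145 in 5 of 5. GSTM4 thus passed the filter on dim signal through DU145, and the size of its difference rests on the constant added before the log. The log2 difference was -2.67 with 16, -3.41 with 1 and -1.74 with 64. Because the filter kept the gene through DU145, its call is no test of a lower level in LNCaP. The other GSTM4 probe set had 1.529 to 4.113 in LNCaP, below the array median in all arrays, and 52.85 to 170.4 in DU145.

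GSTM2 had scaled intensities in LNCaP of 16.29 with ribavirin, 16.62 and 111.4 in EOS and 78.43 and 63.57 in PGK. In DU145 it had 228.7 with ribavirin, 279.2 and 235.9 in EOS and 306.7 and 236.0 in PGK. The lines did not overlap, and the LNCaP arrays were spread more widely on the log scale than the DU145 arrays. LNCaP exceeded its array median in 3 of 5 arrays. Its log2 difference was -2.24 ± 0.38 (95% interval -3.12 to -1.36, limma adjusted p = 0.00146), and it was -2.73 with a constant of 1 and -1.53 with 64.

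The microsomal enzymes split as well. MGST2, which can make leukotriene C4 from leukotriene A4 and glutathione, had scaled intensities in LNCaP of 4478 with ribavirin, 5900 and 4424 in EOS and 5534 and 5199 in PGK. In DU145 it had 1191 with ribavirin, 1069 and 1346 in EOS and 1268 and 1409 in PGK. The means were 5107 ± 648.4 in LNCaP and 1257 ± 133.1 in DU145 (SD, n = 5 arrays each). The log2 difference was 1.99 ± 0.14 (95% interval 1.67 to 2.31, limma adjusted p = 9.2e-06), 3.967-fold higher in LNCaP, and it lay between 1.70 and 2.45 in the 5 pairs of arrays.

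MGST1, an abundant enzyme of the endoplasmic reticulum and outer mitochondrial membrane, was bright in both lines. It had 17060 to 17860 in the 5 LNCaP arrays (median 17200) and 17930 to 22460 in the 5 DU145 arrays (median 21040), so the lines did not overlap but came within a small gap. The log2 difference of -0.21 ± 0.09 did not pass the test (limma adjusted p = 0.0778). With array number as a block it did, at -0.23 ± 0.08 (limma adjusted p = 0.0364), in a fit that called 9 members and 55.6% of all genes. The 3 other kept MGST1 probe sets gave -0.39, -0.22 and -0.63.

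MGST3, which has peroxidase activity toward lipid hydroperoxides, was at 4495 to 5306 in LNCaP and 4870 to 6546 in DU145. The lines overlapped, and the log2 difference of -0.25 ± 0.11 did not pass (95% interval -0.49 to 0, limma adjusted p = 0.0904). A dimmer kept MGST3 probe set went the other way, with 217.8 to 506.3 in LNCaP, 94.62 to 236.1 in DU145 and a log2 difference of 0.99.

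The remaining cytosolic enzymes differed less. GSTO1, an omega class enzyme that acts in thiol transfer and reduction of dehydroascorbate, had 9727 with ribavirin, 8551 and 10350 in EOS and 7476 and 8031 in PGK in LNCaP. In DU145 it had 12470 with ribavirin, 13520 and 12560 in EOS and 13020 and 12010 in PGK. All LNCaP arrays lay below all DU145 arrays. The log2 difference was -0.51 ± 0.10 (limma adjusted p = 0.00339), 1.42-fold lower in LNCaP, and its other probe set gave -0.56. GSTZ1, maleylacetoacetate isomerase of tyrosine breakdown, had 1400 to 1824 in LNCaP and 779.7 to 1132 in DU145. Its log2 difference was 0.70 ± 0.14 (limma adjusted p = 0.00373), 1.622-fold higher in LNCaP.

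GSTK1 separated by array number in LNCaP. Its scaled intensity in LNCaP was 1883 with ribavirin, 1803 in EOS and 1781 in PGK on the arrays numbered 2, and 954.4 in EOS and 931.6 in PGK on those numbered 1. In DU145 it was 1751 with ribavirin, 1703 in EOS and 1747 in PGK on the arrays numbered 2, and 1435 in EOS and 1899 in PGK on those numbered 1. The numbers did not overlap in LNCaP and did in DU145. Number 2 minus number 1 was 0.91 ± 0.16 in LNCaP (limma adjusted p = 0.0194) and 0.06 ± 0.16 in DU145 (limma adjusted p = 0.945). The difference between these, 0.85 ± 0.23, did not pass (limma adjusted p = 0.171). GSTK1 was 1 of 10 members called by number in LNCaP, where 6.45% of all genes were called. By number in DU145 0% were called (1113 genes at an unadjusted p under 0.05), and 0.943% in the difference.

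The GSTK1 difference between lines followed the number: it was 0.10 with ribavirin, 0.08 in EOS and 0.03 in PGK among arrays numbered 2, and -0.58 in EOS and -1.02 in PGK among those numbered 1. Over all arrays it was -0.21 ± 0.24 (limma adjusted p = 0.503), and with number as a block -0.36 ± 0.12 (limma adjusted p = 0.0316). With the LNCaP arrays numbered 2 alone it was 0.09. The ACTB ratio and the deposited scale differ between the same arrays, and their part in the GSTK1 values was not tested.

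**Figure D2:**
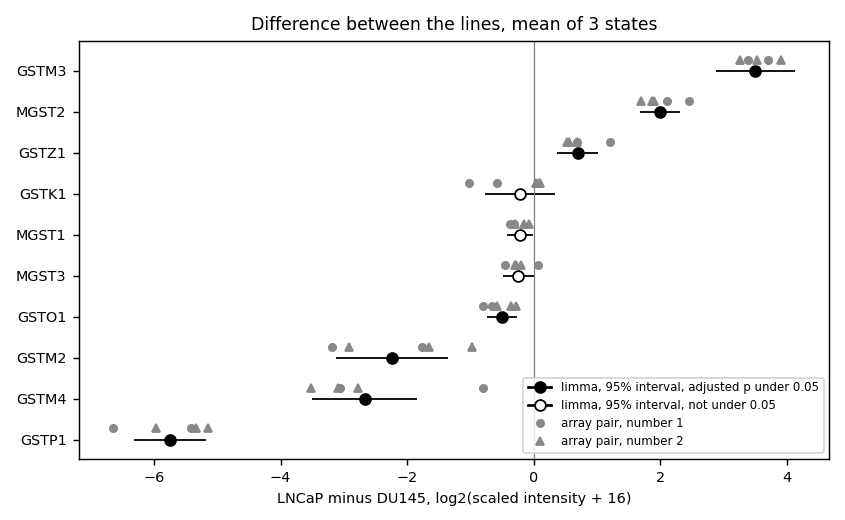
LNCaP minus DU145 on the log2(scaled intensity + 16) scale (horizontal axis) for each member. Large circles are the limma estimates over 3 states with 95% intervals, filled where the adjusted p is under 0.05, and small symbols are pairs of arrays of the same state and number. GSTP1 is farthest to the left at -5.74 and GSTM3 farthest to the right at 3.50, and the GSTK1 pairs run from -1.02 to 0.10.

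Among the PGK arrays alone, 5 members differed between LNCaP and DU145, where 33.1% of all genes did. GSTM3 (3.80 ± 0.41, limma adjusted p = 0.000252) and MGST2 (1.99 ± 0.21, limma adjusted p = 0.000221) were higher in LNCaP. GSTP1 (-5.98 ± 0.38, limma adjusted p = 1.49e-05) and GSTO1 (-0.69 ± 0.15, limma adjusted p = 0.00909) were lower. GSTM4, at 13.03 and 7.34 in LNCaP and 226.1 and 251.5 in DU145, was also called as lower, but passed the filter through DU145. GSTM2, at -1.72 ± 0.58 (limma adjusted p = 0.0501), and GSTZ1, at 0.62 ± 0.21 (limma adjusted p = 0.0556), just missed the threshold. With number as a block 8 members and 44.4% of all genes passed, GSTM2 (limma adjusted p = 0.0261), GSTK1 (0.0411) and GSTZ1 (0.0185) among them. GSTO1 was not called without the DU145 PGK array numbered 1 (-0.63, limma adjusted p = 0.0795). GSTM2 and GSTZ1 passed without the LNCaP EOS array numbered 1 (limma adjusted p = 0.00458 and 0.0492) or numbered 2 (0.00563 and 0.0486), and GSTM2 also without the LNCaP ribavirin array (0.0474). Over all genes the count was 4733, and it was 2595 without the DU145 PGK array numbered 1 and 2497 without the DU145 PGK array numbered 2.

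Genes of like pattern were taken by the root mean square difference of their 6 group means after each gene was centred. For GSTP1 they were CLDN11 (0.134), SERPINB1 (0.137) and DNAJA4 (0.145), all lower in LNCaP, with log2 differences of -5.82, -5.91 and -5.71. For GSTM3 they were ZNF880 (0.127), STEAP1 (0.162) and PYGB (0.17), with 3.30, 3.57 and 3.44. For MGST1 they were PPP4C (0.0373), C14orf119 (0.0387) and GSPT2 (0.0415), with -0.19, -0.24 and -0.19. The measure rests on 6 groups of 1 or 2 arrays. Line differences near that of the member follow from how these genes were picked and are not a separate result.

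EOS selection, the comparison the series was designed for, changed no member past the threshold in either line. In LNCaP 0 of 10 members and 0% of all genes were called (limma; 596 genes at an unadjusted p under 0.05), and in DU145 likewise 0 members and 0% (226 genes). The members' log2 differences, EOS minus PGK, ran from -0.43 to 1.08 in LNCaP and from -0.37 to 0.19 in DU145. Their medians were 0 in LNCaP and -0.11 in DU145, against 0.05 and -0.02 for all genes. The mean of both lines and the difference between lines also gave 0% (292 and 464 genes at an unadjusted p under 0.05), with members from -0.25 to 0.41 and from -0.36 to 1.34. An exact permutation test of 2 arrays against 2 cannot go below p = 0.333.

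GSTM4 (1.08 ± 0.54, 95% interval -0.16 to 2.32) and GSTP1 (0.72 ± 0.38, 95% interval -0.14 to 1.58) had the highest values for EOS minus PGK in LNCaP, each at a limma adjusted p of 0.999. Both are dim there, and their pairs of arrays were uneven: 1.71 in number 1 and 0.45 in number 2 for GSTM4, and 1.34 and 0.10 for GSTP1. In DU145, where both exceeded the array median in 5 of 5 arrays, the values were -0.26 ± 0.54 and 0.01 ± 0.38. GSTM2 in LNCaP (-0.43 ± 0.58) had opposite pairs, -1.53 in number 1 and 0.68 in number 2. GSTO1 was above 0 in 4 of 4 pairs, by 0.19 and 0.37 in LNCaP and by 0.05 and 0.06 in DU145, with fitted values of 0.28 ± 0.15 and 0.06 ± 0.15. GSTM3 had -0.16 ± 0.41 in LNCaP and 0.19 ± 0.41 in DU145, with opposite pairs in each line.

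None of the remaining members passed. In LNCaP the EOS minus PGK values were 0.03 ± 0.37 for GSTK1, -0.04 ± 0.21 for GSTZ1, -0.02 ± 0.13 for MGST1, -0.07 ± 0.21 for MGST2 and 0.12 ± 0.16 for MGST3. In DU145 they were -0.22 ± 0.37, -0.37 ± 0.21, -0.07 ± 0.13, -0.15 ± 0.21 and -0.18 ± 0.16 in the same order of genes. The narrowest interval, that of MGST1, was -0.32 to 0.28 in LNCaP and -0.37 to 0.24 in DU145. With number as a block 3 members, and 1297 of 14313 genes, reached an unadjusted p under 0.05 in LNCaP, GSTP1, GSTM4 and GSTO1, at limma adjusted p-values of 0.544, 0.544 and 0.546.

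**Figure D3:**
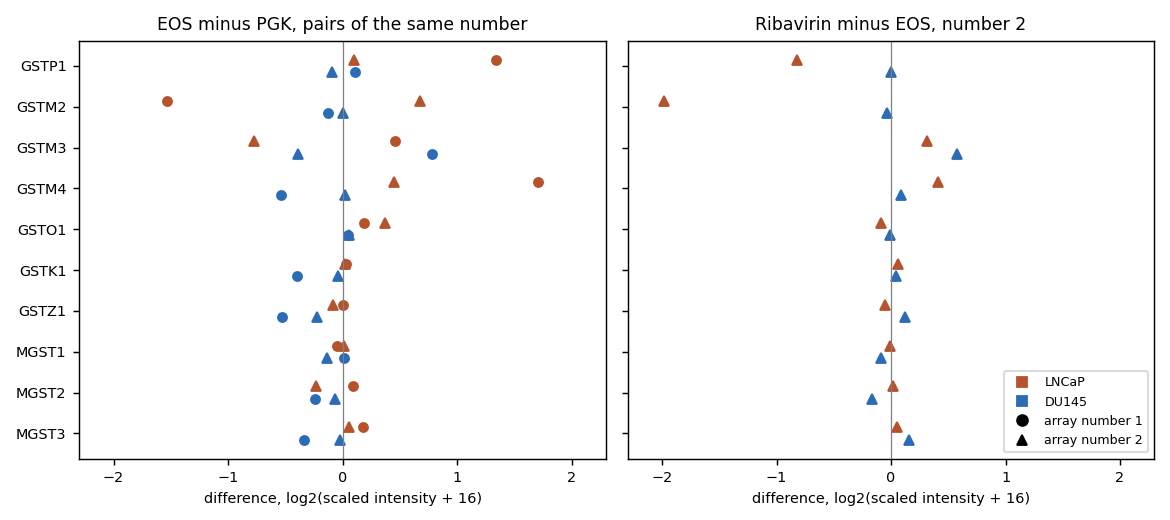
Differences on the log2(scaled intensity + 16) scale (horizontal axes) for each member, EOS minus PGK in pairs of the same array number (left) and ribavirin-treated EOS minus EOS, both number 2 (right). Orange is LNCaP, blue is DU145, circles are number 1 and triangles number 2. The widest pairs are GSTM4 at 1.71 and GSTM2 at -1.53 in LNCaP (left) and GSTM2 at -1.98 in LNCaP (right).

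Ribavirin was measured on 1 array per line, which the shared fit assumes to vary like the other groups. No member and 0% of all genes were called for ribavirin minus EOS in the mean of both lines (limma; 253 genes at an unadjusted p under 0.05) or in the difference between the lines (222 genes). Members ran from -0.58 to 0.40 in the mean of both lines, with a median of 0 against 0.01 for all genes. Ribavirin arrays are all numbered 2 and the EOS means hold both numbers, so these values include part of any difference by number. With number as a block the members ran from -0.72 to 0.16. Beside the EOS array of the same number, GSTM2 had a log2 difference of -1.98 with ribavirin in LNCaP (16.29 with ribavirin and 111.4 in EOS 2). In DU145 the same GSTM2 difference was -0.04. GSTP1 was at 71.09 with ribavirin and 138 in EOS 2 in LNCaP, a log2 difference of -0.82, and at 5432 and 5418 in DU145, a difference of 0. The LNCaP EOS array numbered 1, without ribavirin, had a GSTM2 value of 16.62, so the treated array lay next to an untreated one. The other members differed by -0.17 to 0.58 in these pairs.

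The rest of the glutathione system was read from lists drawn up with earlier results of these data known, and each count below is of genes that passed limma's test between LNCaP and DU145 in the mean over the 3 states. Counts are to be read beside the 23.5% of all genes higher and 24.9% lower in LNCaP. Of 16 other glutathione transferases 10 were tested, 1 was higher, 4 were lower and 5 were not called, with a median log2 difference of -0.42. A gene below the array median in all arrays of one line passed the filter through the other line alone, and for such genes levels are given without a size or p. GSTT2, a theta class enzyme, was such a gene: it had 255.1 to 469.6 in LNCaP and 3.724 to 7.961 in DU145, where 0 of 5 arrays exceeded the median. GSTO2, which lies next to GSTO1 on chromosome 10, had -3.22 ± 0.19, and PTGES, a prostaglandin E synthase of the MGST family, had -2.67 ± 0.39. PTGES was dim in LNCaP, at 15.7 to 96.45, and exceeded the array median in 3 of 5 arrays. GSTM1 (-1.82 ± 0.24) and GSTT1 (-0.85 ± 0.15) were the other 2 that were lower. GSTM1 was also dim in LNCaP, at 38.56 to 114.5, and its probe set is of the kind that can bind related transcripts. Among 9 tested of 13 proteins with a glutathione transferase fold, 0 were higher and 5 lower, among them the chloride intracellular channel proteins CLIC3 (14.4 to 85.29 in LNCaP, 126.8 to 790.8 in DU145), CLIC2 (6.369 to 50.47 in LNCaP, 57.76 to 82.77 in DU145) and CLIC4 (a log2 difference of -1.15). CLIC2 exceeded the array median in 0 of 5 LNCaP arrays and CLIC3 in 1 of 5.

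Of the 9 genes of glutathione synthesis and cystine uptake, 1 was higher and 3 were lower in LNCaP. GCLC and GCLM, the catalytic and modifier subunits of the rate-limiting glutamate-cysteine ligase, were lower in LNCaP, with log2 differences of -2.47 ± 0.18 and -1.12 ± 0.20. GCLC had 1142 to 2610 in LNCaP and 8315 to 12800 in DU145. CTH, which makes cysteine from cystathionine, was higher by 1.05 ± 0.32. Of 12 tested genes of glutathione recycling and peroxidases, 4 were higher and 3 lower. GPX1, the cytosolic peroxidase, was higher (2.64 ± 0.18), as was the mitochondrial glutaredoxin GLRX2 (1.88 ± 0.15), whereas the secreted peroxidase GPX3 had 5.25 to 44.44 in LNCaP, below the array median in all arrays, and 1001 to 3048 in DU145.

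In the thioredoxin system 6 of 11 tested genes were higher in LNCaP and 3 lower. The peroxiredoxin PRDX2 was higher (3.02 ± 0.13), whereas SRXN1, which repairs overoxidised peroxiredoxins (-2.11 ± 0.15), and the thioredoxin reductase TXNRD1 (-1.92 ± 0.08) were lower. Of 12 tested genes of export and breakdown of glutathione and its conjugates, 5 were higher and 2 lower. The conjugate pump ABCC3 had 2.076 to 10.15 in LNCaP, below the array median in all arrays, and 735 to 1745 in DU145. The pump ABCC4 was higher (2.21 ± 0.28), and CHAC2, which cleaves glutathione, was lower (-0.91 ± 0.15).

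NRF2 (NFE2L2) is the transcription factor that binds the antioxidant response element, and KEAP1 is the adaptor that marks it for degradation. Of 14 tested NRF2 regulators and targets, 1 was higher and 12 were lower in LNCaP, with a median log2 difference of -1.59. The 1 that was higher was KEAP1 itself, with 1802 to 2408 in LNCaP and 4.935 to 7.566 in DU145. KEAP1 exceeded the array median in 0 of 5 DU145 arrays, so it passed the filter through LNCaP alone. AKR1B10 had 10.13 to 39.45 in LNCaP, below the array median in all arrays, and 167.6 to 217.6 in DU145. It thus passed the filter through DU145 alone. The counts and the median of this list include KEAP1 and AKR1B10, for which the filter fixed the direction in advance. Among the 12 that were lower were the aldo-keto reductases AKR1C3 (2.96 to 107.6 in LNCaP, 1821 to 4111 in DU145) and AKR1C2 (29.77 to 389.9 in LNCaP, 1336 to 5410 in DU145). AKR1C3 exceeded the array median in 1 of 5 LNCaP arrays and AKR1C2 in 3 of 5. Genes of this family are alike in sequence, so their signals may be shared.

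**Figure D4:**
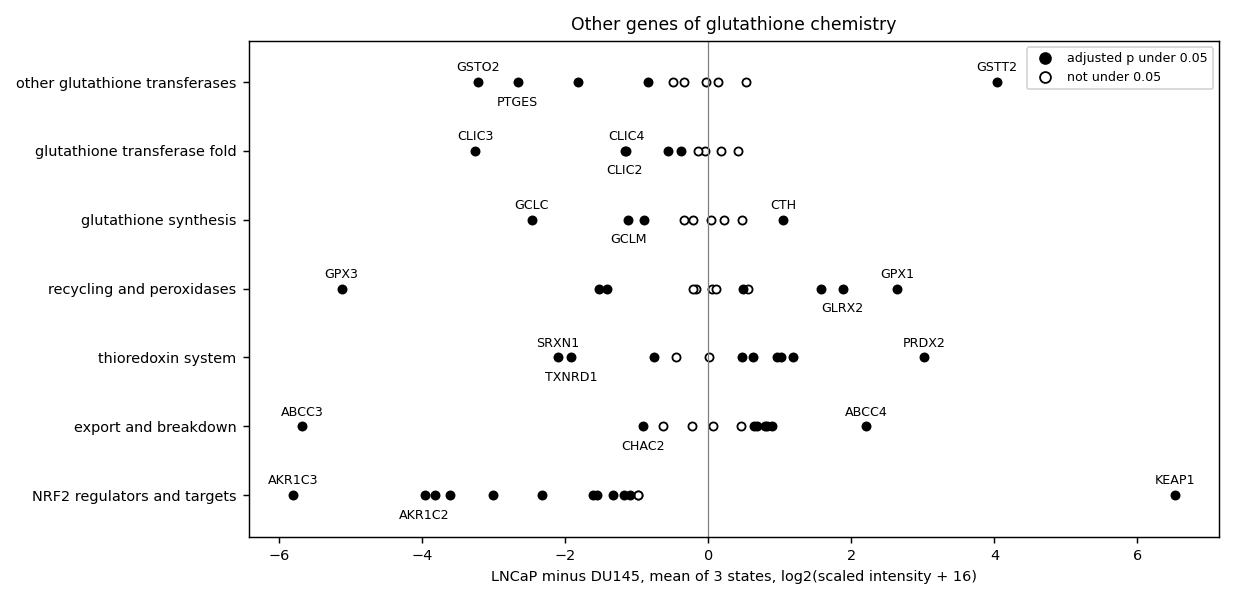
LNCaP minus DU145 on the log2(scaled intensity + 16) scale (horizontal axis) for the tested genes of each list (rows), filled where the limma adjusted p is under 0.05. NRF2 regulators and targets lie to the left of 0 apart from KEAP1, and the other lists lie on both sides. Positions of genes that are dim in one line, KEAP1, GSTT2, GPX3 and ABCC3 among them, depend on the constant of 16.

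None of the genes of these lists was called for EOS minus PGK or for ribavirin minus EOS, where 0% of all genes were. By array number in LNCaP, called genes of these lists were GSTA4 (-1.40), GLRX (-1.01), CBS (-0.95), PTGES2 (-0.99), AKR1C2 (-2.71), MAFF (1.59) and NQO1 (0.64), log2 differences of number 2 minus number 1. The KRT8 and LYZ markers were also called there (-1.31 and 3.08).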

How the data were processed

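Total RNA from 10 samples was measured on Affymetrix expression arrays. The authors deposited linear intensity values per probe set, made with MAS5 and affy per the submitters' processing notes, which give no version or role. The background correction and genome build are not given in the sources used here. Array number coincided with deposited scale, so each array was scaled to a 2% trimmed mean of 500 and log2(intensity + 16) was taken.

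Of 54675 probe sets, 62 controls were left out, 41097 had 1 symbol in the platform annotation and 1801 had several. Entrez identifiers tied 41043 of the single-symbol probe sets to a current gene. Probe sets above the array median in at least 2 of 10 arrays were kept (33451), and the probe set of highest mean per gene gave 14313 genes. limma 3.58.1 in R 4.3.3 was fitted to the means of 6 groups (4 residual degrees of freedom, empirical Bayes with an intensity trend, Benjamini-Hochberg over all genes, threshold 0.05). The fit was also run on simulated data with the same spread for every gene and no difference by array number. That run does not show how the fit performs where these differ, as in the present arrays. Precision is limited by the number of arrays.

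Replicate numbers come from the labels. Within each line, same-numbered PGK and EOS arrays deviated from their group means together, with a correlation across 14313 genes of 0.484 in LNCaP and 0.123 in DU145. The numbers were taken to pair the arrays on these data and not on a label. A shift shared by all arrays of a number would also give positive values, so they do not show that same-numbered arrays came from the same culture. A fit with number within line as a block was run as an alternative, and the contrasts of number 2 and number 1 come from that fit.

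The members and lists were chosen with earlier results of these data known. All members were named, with 3 genes of like pattern for GSTP1, GSTM3 and MGST1. From the other lists the 3 largest called line differences and any gene called elsewhere were named. GSTM1, GSTT1 and AKR1B10 were named after their values were seen. Alternatives were the added constant, the normalization, the filter, the choice of probe set, the block and leaving out each replicate. Promoter windows are from RefSeq, GRCh38.p14, where MGST2 had none. Protein sequences were not used here.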

Additional observations from a re-analysis of the deposited data

How the results depend on the processing

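The 7 members called between LNCaP and DU145 in the mean over 3 states kept their direction under every alternative run, and stayed past the threshold under all of them except the unscaled values. Unscaled, 449 genes and 1 member (GSTP1) were called in that comparison and 57 genes and 0 members among PGK, where the spread holds the difference in deposited scale by construction. Unscaled values moved the median of all genes to -0.18 among PGK and for EOS in DU145, and to -0.98 for ribavirin in the mean of both lines. Quantile normalization called MGST1 (-0.32) and MGST3 (-0.32) as well. The mean of all probe sets turned MGST3 to 0.40 (3 states) and 0.20 (PGK) between lines. Leaving out 1 array gave 2497 to 5061 genes and 4 to 7 members between lines among PGK, and 0 to 4 genes for EOS in LNCaP.

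With the replicate block 8 members were called between lines among PGK, where 44.4% of all genes were, against 33.1% without it. Beside the calls given above, the block changed no other member's call. With the LNCaP arrays numbered 2 alone, an alternative chosen after seeing the data that leaves 1 array per LNCaP state, GSTK1 turned to 0.09 between lines, and 83 genes were called for EOS in LNCaP, 11 in the mean of both lines and 33 in the difference, none of them a member.

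No member was called for EOS minus PGK in either line under any alternative, and 21 of 360 such values turned sign. In DU145 these were GSTP1 (-0.18) and GSTO1 (-0.13) unscaled and GSTM3 (-0.06) as the mean of all probe sets. In LNCaP they were MGST3 (-0.07) as the mean of all probe sets, and GSTM2 (0.68) and MGST1 (0.01) with arrays numbered 2 alone. Without 1 array the DU145 values ran from -0.09 to 0.11 for GSTP1, -0.24 to 0.11 for GSTM2, -0.30 to 0.69 for GSTM3, -0.61 to 0.09 for GSTM4, -0.19 to 0.05 for MGST1 and -0.32 to 0.01 for MGST2. The LNCaP values ran from -1.41 to 0.56 for GSTM2, -0.76 to 0.45 for GSTM3, -0.44 to 0.49 for GSTK1, -0.21 to 0.12 for GSTZ1, -0.05 to 0.02 for MGST1 and -0.28 to 0.14 for MGST2. In the 4 comparisons of means and differences over lines, 44 of 680 member values turned sign and 0 were called. The cause of these changes was not tested. Added constants of 1 and 64 gave -3.41 and -1.74 for GSTM4 and -2.73 and -1.53 for GSTM2 between lines. Signal limits GSTM2 and GSTM4 in LNCaP, which exceeded the array median in 3 and 1 of 5 arrays. GSTP1 is also dim in LNCaP, at 41.82 to 138, but exceeded the array median in 4 of 5 arrays.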
